A study of Mus musculus with 10 samples.

Results

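Messenger RNA of the receptors for glutamate and GABA was followed in mice that carry 1 intact copy of Ptch1. Libraries were labelled as cerebellum or as medulloblastoma, a tumour of the cerebellum. Genes were taken by name: the ionotropic glutamate receptor subunits (AMPA, NMDA, kainate and delta), the metabotropic glutamate receptors (mGlu), the GABA-A subunits and both GABA-B subunits, each with at least 10 counts in at least 3 libraries. Of 39769 gene symbols in the deposited table, 47 matched by name and 42 met the count minimum: 4 AMPA, 7 NMDA, 5 kainate, 2 delta, 7 mGlu, 15 GABA-A and 2 GABA-B genes. Those left out were Gabre, Gabrp, Gabrr1, Gabrr3 and Grm6. Just inside the minimum lay Gabrr2, with 4 to 16 counts and at least 10 in 4 libraries, and Grin3b and Gabrq, which reached 10 counts in 8 and 9 libraries. Just outside lay Gabre, with 0 to 17 counts and at least 10 in 1 library. All 42 genes also passed the filter on low counts of the test.

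The 10 libraries came from 3 groups, named here as the labels name them. The Ptch group, labelled as control cerebellum, held 4 libraries of Ptch+/- mice, with Ptch 1 and Ptch 2 at 4 months of age and Ptch 3 and Ptch 4 at 2 months. The NKP group held 3 libraries labelled medulloblastoma, from Ptch+/- mice with Nestin-Cre and Kmt2dfl/+, all at 4 months. The AKP group held 3 libraries labelled medulloblastoma, from Ptch+/- mice with AtohI-Cre and Kmt2dfl/+, of which AKP 3 was 4 months old and the others 2 months. Ptch heterozygosity was therefore shared by all 3 groups, and a tumour with intact Kmt2d was not among them. Nestin-Cre acts in neural progenitors broadly and Atoh1-driven Cre in granule neuron precursors, and Kmt2d encodes a histone H3 lysine methyltransferase.

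Glutamate and GABA are the main fast excitatory and inhibitory transmitters of the brain. AMPA, NMDA and kainate receptors are cation channels built as tetramers, the delta receptors organise synapses through cerebellins, and mGlu receptors signal through G proteins. GABA-A receptors are chloride channels, mostly pentamers of alpha, beta and either gamma or delta subunits, and the GABA-B receptor is a G protein-coupled dimer of Gabbr1 and Gabbr2. As cerebellar granule neurons mature they replace Grin2b with Grin2c among NMDA subunits and gain Gabra6 among GABA-A alpha subunits, while Gabra2 marks the immature neurons. Medulloblastoma driven by Ptch1 loss arises from granule neuron precursors.

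Gabra6 and Gabra2, the adult and the juvenile alpha subunit, are a pair whose levels were low in the same libraries, as given below, and the 250 bases before their start sites are shown for that reason. Both are on the minus strand of GRCm38.p6, with sequence from RefSeq, written 5′ to 3′ in the direction of the gene. Gabra6 lies at chr11:42321073-42321322 and Gabra2 at chr5:71095850-71096099. Capitals mark the letters TTGGC or, on the other strand, GCCAA, the core that nuclear factor I (NFI) proteins recognise.
Gabra6: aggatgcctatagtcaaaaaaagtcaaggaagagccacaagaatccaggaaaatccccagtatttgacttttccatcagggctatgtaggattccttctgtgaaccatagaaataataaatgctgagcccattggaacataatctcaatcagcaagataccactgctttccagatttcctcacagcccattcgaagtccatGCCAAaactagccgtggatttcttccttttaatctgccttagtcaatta
Gabra2: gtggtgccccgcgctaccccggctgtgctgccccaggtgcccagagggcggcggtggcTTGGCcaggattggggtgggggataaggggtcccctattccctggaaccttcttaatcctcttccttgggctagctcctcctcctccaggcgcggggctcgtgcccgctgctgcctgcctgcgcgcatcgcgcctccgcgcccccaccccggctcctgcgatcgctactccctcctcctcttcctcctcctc
Each window held 1 such core, beginning 49 bases before the start in Gabra6 and 192 bases before it in Gabra2. The Gabra6 window had 40.8% G and C and 2 CG pairs, against 70% and 18 CG pairs for Gabra2. This core was present in 41.5% of 32851 promoter windows of the same length, and in 14 of the 27 receptor genes that have an entry, so a match describes the letters only. The longer GLI core GACCACCCA (TGGGTGGTC on the other strand) was in 0.225% of windows and in 0 of these 27.

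Kmt2d is the floxed gene, and its level checks the labels. In CPM, the count scaled to library size by TMM, it was 68.4, 57.3, 56.3 and 52.6 across Ptch 1 to 4, 33.2, 46.9 and 58.0 across NKP 1 to 3, and 34.3, 41.3 and 43.6 in AKP 1 to 3. Kmt2d in the library labelled NKP 3 was inside the Ptch range, and which exons are floxed is not given. Total counts ran from 12300430 to 19348991. In 4 libraries (Ptch 1, Ptch 3, NKP 3 and AKP 3) Y-linked genes did not match the labelled sex, and the library labelled NKP 2 had 1238 Y-linked counts together with 1353 Xist counts. Over all genes, libraries did not group by label throughout. The chi-square per degree of freedom between the counts of a pair was 3.54 for NKP 1 with AKP 1, about as low as for Ptch 3 with Ptch 4 (3.31) and Ptch 1 with Ptch 2 (3.51), while AKP 1 differed from AKP 2 and AKP 3 by 38.5 and 19.3. NKP 3 was nearest to Ptch 4 and Ptch 3 (3.85 and 5.41). Groups follow the labels throughout, and whether samples were exchanged was not tested, so that every group difference holds for the labels as given. Markers of dividing cells, summed over 8 genes, were lowest in NKP 1, NKP 2 and AKP 1 (19.4, 16.7 and 16.5 CPM) and highest in Ptch 1 and Ptch 2 (347 and 346 CPM), with 125 and 117 CPM in Ptch 3 and Ptch 4, 59.2 in NKP 3, and 221 and 179 in AKP 2 and AKP 3. AKP 2 and AKP 3 thus lay above Ptch 3 and Ptch 4 but below Ptch 1 and Ptch 2, and all 3 NKP libraries and AKP 1 lay below every Ptch library. Summed markers of mature granule neurons were 2867 to 4635 CPM in every library.

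Levels of different genes were compared as CPM per kilobase of the longest annotated transcript. Across the 10 libraries Gabra6 was the most abundant of the 42 genes, with a median of 171 CPM per kb (range 74.7 to 219), followed by Gabbr1 (114, range 88.9 to 122) and Gabrd (77.0, range 68.5 to 108), the delta subunit of extrasynaptic receptors. Next came Grm4 (median 73.1) and Gria1 (72.8). The ranges of neighbours among these 5 overlapped, and their order was not the same in every library. In Ptch 1, Ptch 2 and AKP 2 Gabra6 lay below Gabbr1 (74.7 against 88.9 in AKP 2), whereas Gabbr1 lay above Gabrd in every library. The 5 lowest were Grin2b (0.517), Gabrq (0.427), Grin3b (0.308), Gabrr2 (0.248) and Gabrg3 (0.194). These levels, and the shares below, depend on the length used. It was 24060 bases for Grin2b, 14634 for Grin2a and 10371 for Gria2, against 4895 for Grin2c. Which transcripts were expressed was not tested, and a shorter one would give a higher level per kb.

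**Figure D1:**
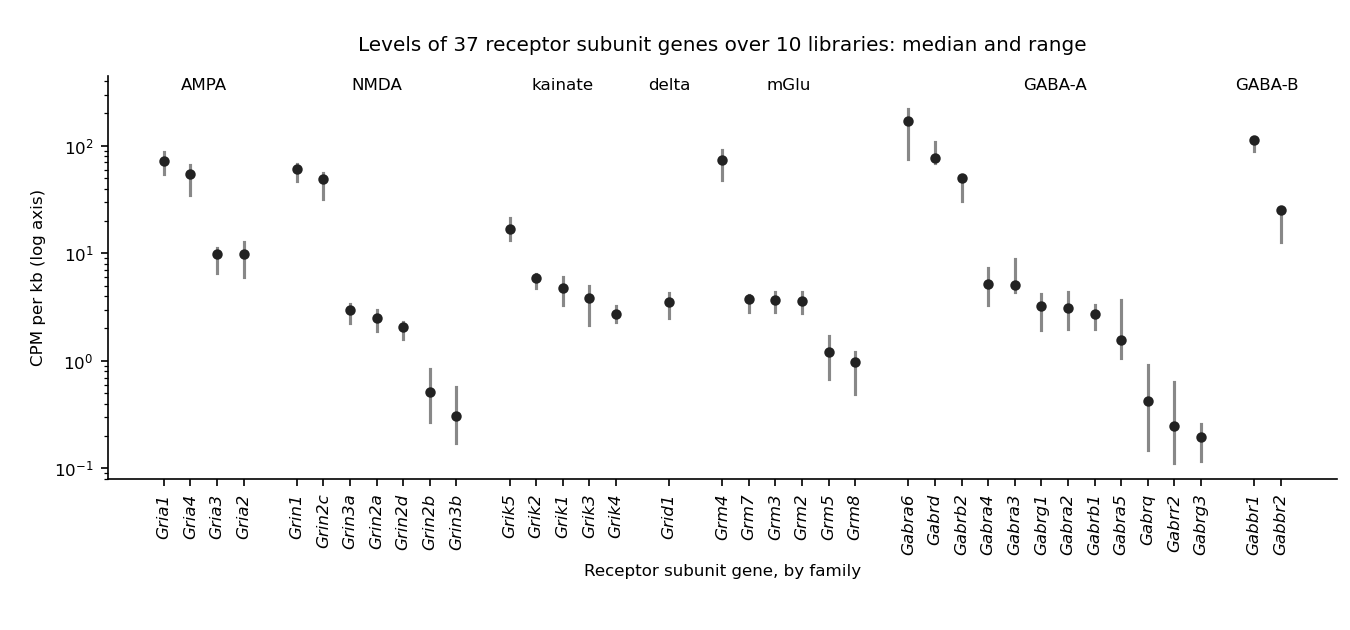
Levels of 37 of the receptor subunit genes on a log axis, in CPM per kb of the longest transcript, by family. Points are medians over the 10 libraries and bars run from the lowest to the highest library; Gabra6 has the highest median (171) and Gabrg3 the lowest (0.194).

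Each family had a few dominant members. Among AMPA subunits, Gria1 held 47.0% to 53.3% of the family's CPM per kb and Gria4 34.0% to 38.9%, with Gria2, which makes AMPA channels impermeable to calcium, at 5.55% to 7.63% and Gria3 at 6.03% to 7.10%. Among the GluN2 subunits of NMDA receptors, Grin2c held 87.1% to 92.8%, Grin2a 3.57% to 5.66%, Grin2d 3.05% to 6.35% and Grin2b 0.468% to 1.66%. The shared NMDA subunit Grin1 had a median of 61.2 CPM per kb, against 2.96 for the glycine-binding subunit Grin3a. Grik5 held 41.4% to 57.1% of kainate CPM per kb, and Grik1, Grik2, Grik3 and Grik4 had medians of 2.75 to 5.88 CPM per kb. The delta receptor gene Grid1 had a median of 3.55 CPM per kb. Grm4, the presynaptic receptor of granule cell axons, held 67.2% to 74.3% of mGlu CPM per kb, with Grm7, Grm3, Grm2, Grm5 and Grm8 at medians of 0.986 to 3.73 CPM per kb. Among GABA-A alpha subunits Gabra6 held 59.7% to 68.0%. Other GABA-A genes were Gabrb2 (median 50.1), Gabra4 (5.16), Gabra3 (5.11), Gabrg1 (3.21), Gabra2 (3.11), Gabrb1 (2.71) and Gabra5 (1.57 CPM per kb). Gabbr2 had a median of 25.1 CPM per kb.

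Of the 6 genes that differed most between libraries 4 were GABA-A subunits. The ratio of the highest to the lowest library was at least 2 in 18 of the 42 genes and at least 3 in 6, among them Gabrq (6.08), Gabrr2 (5.60), Gabra5 (3.44), Grin3b (3.32) and Grin2b (3.11), of which Gabrq, Gabrr2 and Grin3b are near the count minimum. It was below 1.5 in 7, with the kainate subunit Grik2 the steadiest at 1.35. The library labelled AKP 2 held the lowest value of 22 of the 42 genes, while it held the lowest value of 18.3% of all genes tested. The highest value was in NKP 2 for 12 of the 42, against 14.9% of all genes.

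**Figure D2:**
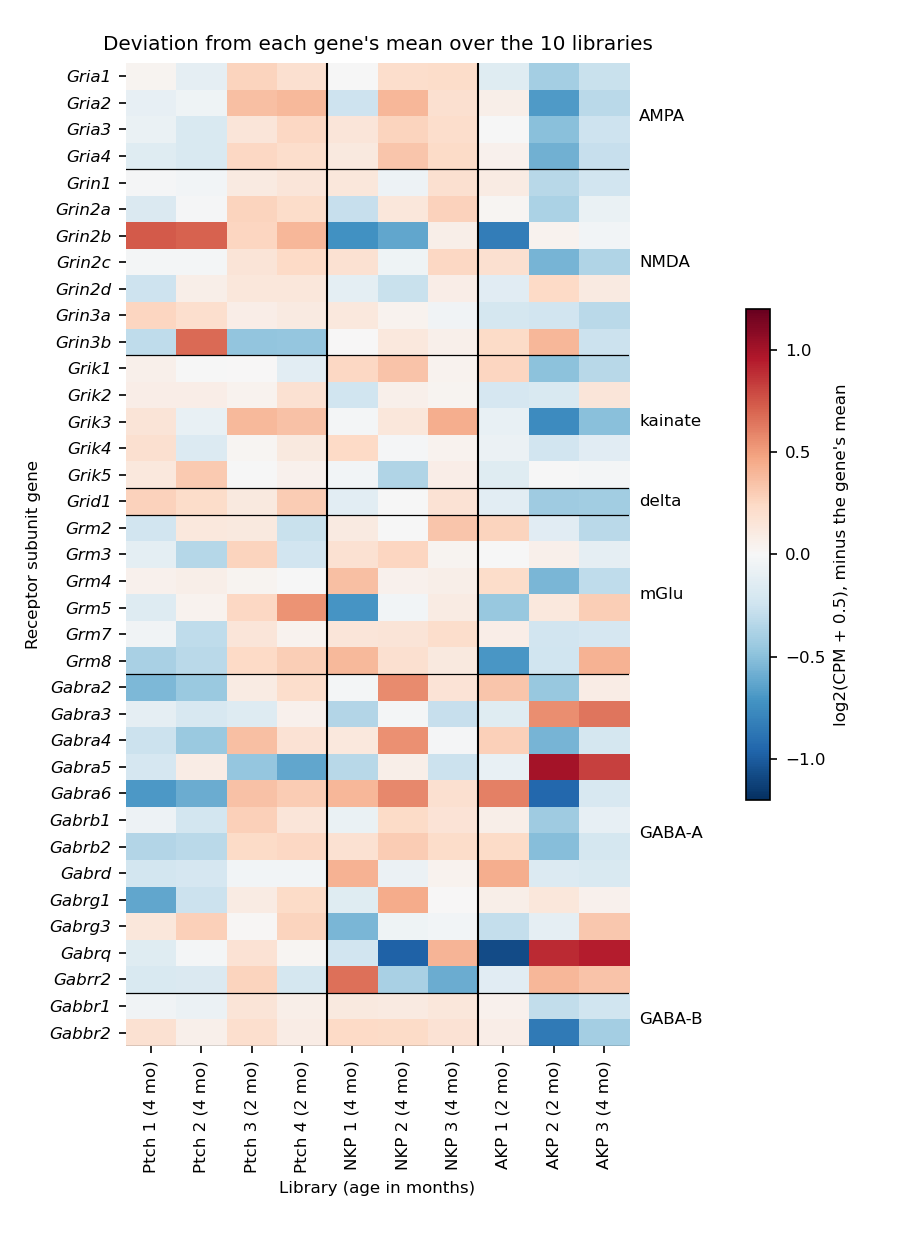
Deviation of log2(CPM + 0.5) from each gene's 10-library mean, for 37 receptor genes, with families separated by horizontal lines and groups by vertical lines. AKP 2 and AKP 3 are below the mean for most glutamate receptor genes and above it for Gabra3, Gabra5 and Gabrq, and Ptch 1 and Ptch 2 are low for Gabra2 and Gabra6 and high for Grin2b.

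Gabrb2, the main cerebellar beta subunit, lies on chromosome 11 as Gabra6 does, and its level was 136, 139, 205 and 206 CPM in Ptch 1 to 4, 197, 214 and 202 CPM in NKP 1 to 3, and 204, 122 and 150 CPM in AKP 1 to 3. Ptch 1, Ptch 2, AKP 2 and AKP 3 were the 4 lowest. The 4 genes on chromosome 5 (70751047 to 72149572), Gabrg1, Gabra2, Gabra4 and Gabrb1, summed to 73.3, 70.9, 106 and 101 CPM in Ptch 1 to 4, 87.1, 119 and 95.4 CPM in NKP 1 to 3, and 101, 69.4 and 85.3 CPM in AKP 1 to 3, with the same 4 libraries lowest in the sum, although Gabrg1 alone was 16.2 CPM in AKP 2, above its value in Ptch 1 to 3. On the X chromosome (72432676 to 72842607) Gabra3 and Gabrq summed to 17.7 to 23.4 CPM in every library but AKP 2 and AKP 3, where the sum was 34.8 and 36.7 CPM.

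The NKP against Ptch comparison asks how medulloblastoma with Nestin-Cre and floxed Kmt2d differs from Ptch+/- cerebellum. No receptor gene passed the threshold (edgeR adjusted p below 0.05), as was the case for 0% of the 15617 genes tested. Among the 42, 1 had an unadjusted p under 0.05, as had 2660 of all genes (17%), and DESeq2 called 1 (2.6% of all genes); both were Grin2b. Log2 fold changes were positive in 29 and negative in 13, with a median of 0.09 against 0.01 over all genes tested. That median was 0.19 in libraries of 4 months and turned to -0.042 without Ptch 1 and Ptch 2. Levels did not overlap between the groups in 1 gene that was higher in NKP, Grm7 (6.96% of all genes), and in 2 that were lower, Grin2b and Gabrg3 (8.95% of all genes).

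Grin2b, the NMDA subunit of immature neurons (chromosome 6, 135713221 to 136173615), had 20.2, 19.9, 14.4 and 15.9 CPM in Ptch 1 to 4 and 7.03, 7.57 and 12.5 CPM in NKP 1 to 3. Every NKP library lay below every Ptch library, and NKP 1 and NKP 2 were lowest. The log2 fold change was -0.95 ± 0.25 (SE) with edgeR adjusted p = 0.218. No gene had a smaller adjusted p in this comparison, but others shared this value. Among them was Slc6a13, with a smaller unadjusted edgeR p (0.000497, against 0.00248 for Grin2b). Grin2b passed in 3 of 24 other settings: within the libraries of 4 months it was -1.13 with adjusted p = 0.00361, and it was -1.12 (adjusted p = 0.0312) with age as a covariate and -0.95 (adjusted p = 0.0226) by DESeq2. In the other 21 it did not pass, among them -0.74 (adjusted p = 0.99) without Ptch 1 and Ptch 2, -0.88 (adjusted p = 0.509) without Ptch 1 and -1.26 (adjusted p = 0.114) without NKP 3. The libraries with the most Grin2b, Ptch 1 and Ptch 2, were also those with the most dividing-cell RNA, and NKP 1 and NKP 2 were among the 3 with the least. The sum of granule neuron precursor markers was 447, 471, 248 and 242 CPM in Ptch 1 to 4 and 153, 130 and 189 CPM in NKP 1 to 3. In AKP 1 to 3 it was 131, 306 and 278 CPM. Dividing-cell RNA was 221 and 179 CPM in AKP 2 and AKP 3, against 125 and 117 CPM in Ptch 3 and Ptch 4. Grin2b was 6.49, 12.3 and 11.6 CPM in AKP 1 to 3. AKP 3 was 4 months old, while AKP 1, AKP 2, Ptch 3 and Ptch 4 were 2 months old. The part of dividing or precursor cells in the Grin2b values was not tested, and in bulk tissue fewer cells of a type cannot be told apart from less RNA per cell.

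**Figure D3:**
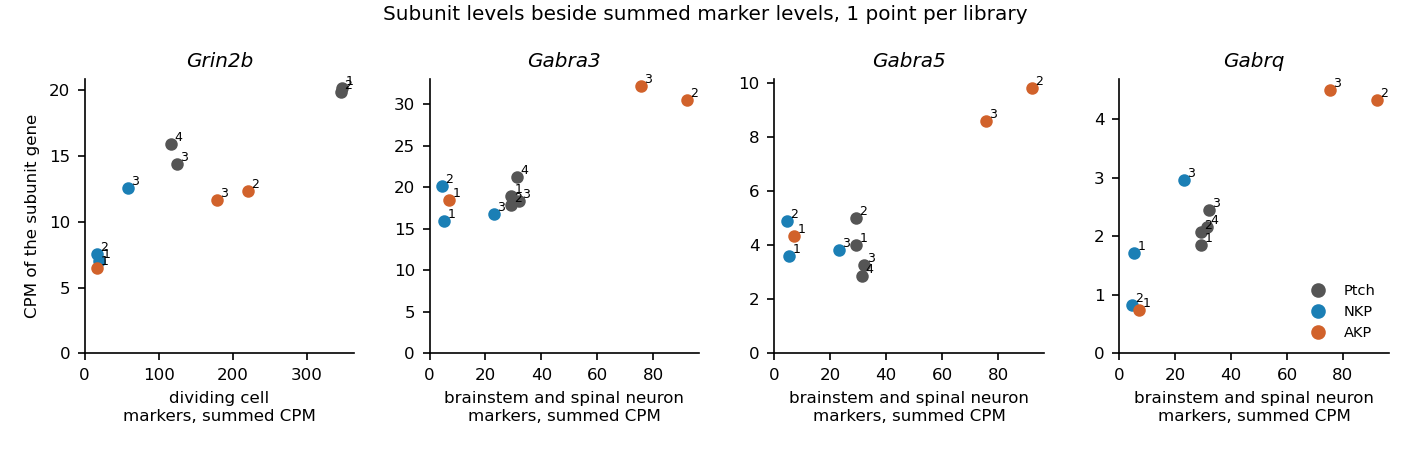
Level of Grin2b beside the summed level of 8 dividing-cell markers, and of Gabra3, Gabra5 and Gabrq beside the summed level of 12 brainstem and spinal neuron markers, in CPM, 1 point per library with its replicate number. NKP 1, NKP 2 and AKP 1 are lowest for Grin2b and for the dividing-cell sum, and AKP 2 and AKP 3 stand above the other libraries for all 3 GABA-A genes and for the brainstem and spinal sum.

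The GABA-A genes had mostly positive differences in NKP, in 12 of 15 (median 0.23 on the log2 scale), and none passed. Markers of mature granule neurons were positive in 9 of 9, of Purkinje cells in 8 of 9 and of inhibitory interneurons in 7 of 8. The interneuron sum was 1524 to 2249 CPM in NKP and 1148 to 1514 CPM in Ptch. Other lists went the other way, with 0 of 8 positive for precursors and for dividing cells. None of these markers passed, and their part in the GABA-A values was not tested. Gabra6 was 221, 234, 453 and 440 CPM in Ptch 1 to 4 and 467, 529 and 406 CPM in NKP 1 to 3, a log2 fold change of 0.47 ± 0.39 (adjusted p = 0.570). The NKP values lay near those of Ptch 3 and Ptch 4 and far above those of Ptch 1 and Ptch 2. Gabra2, its juvenile counterpart, gave 0.40 ± 0.23 (adjusted p = 0.394) and Gabrd 0.26 ± 0.16 (adjusted p = 0.404). Gabrg3, a sparse gamma subunit, was 1.93 to 2.43 CPM in Ptch and 1.14 to 1.86 CPM in NKP (-0.45 ± 0.30, adjusted p = 0.443). Among libraries of 4 months the only Ptch libraries are Ptch 1 and Ptch 2, and 9 receptor genes passed there, against 15.6% of all genes. Among them Gabra6 (1.04, adjusted p = 8.09e-05), Gabrb2 (0.58, adjusted p = 0.00185), Gabra2 (0.78, adjusted p = 0.012), Gabra4 (0.61, adjusted p = 0.0314) and Gria4 (0.40, adjusted p = 0.0229) were higher in NKP in that fit, and Grin2b was lower. Without Ptch 1 and Ptch 2 the Gabra6 difference was 0.06, so age cannot be told apart from this pair of libraries.

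No glutamate receptor gene passed in NKP against Ptch in the fit of all 10 libraries, Grin2b included. Grin2c, the adult NMDA subunit, gave 0.04 ± 0.15 (adjusted p = 0.915). The mGlu genes had 6 positive and 1 negative log2 fold changes with a median of 0.21, and the AMPA genes 3 and 1 with a median of 0.11. Grm7, a presynaptic mGlu receptor, was 16.7, 16.7 and 17.4 CPM in NKP 1 to 3 and 12.1 to 16.6 CPM in Ptch (0.21 ± 0.14, adjusted p = 0.450). Grm3, found on glia as well as neurons, gave 0.26 ± 0.16 (adjusted p = 0.432), and Grm5, a group I mGlu receptor, gave -0.38 ± 0.25 (adjusted p = 0.440). The kainate subunit Grik5 gave -0.22 ± 0.11 (adjusted p = 0.329) and the delta receptor Grid1 -0.22 ± 0.12 (adjusted p = 0.367). The NKP library whose Kmt2d level was within the Ptch range, NKP 3, was nearest to the Ptch libraries for Grin2b. Over all genes, too, NKP 3 was nearest to Ptch 4 and Ptch 3, and a link between Kmt2d and Grin2b was not tested.

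The AKP libraries, labelled medulloblastoma, with AtohI-Cre and floxed Kmt2d, were set against Ptch. Of the 42 receptor genes 3 passed and all 3 fell: Grid1, Grin3a and Grik3. Over all genes tested 5.68% passed, 3.38% higher and 2.3% lower. Another 7 receptor genes had an unadjusted p under 0.05, so that 10 of 42 did in all, 2 higher and 8 lower, near the share of all genes (25.1%, with 1936 higher and 1980 lower). Log2 fold changes were negative in 29 and positive in 13, with a median of -0.18 against -0.02 over all genes. That median was -0.033 with length and GC trends removed, -0.31 in libraries of 2 months, -0.053 without AKP 2 and -0.31 without AKP 1, and turned to 0.018 without AKP 2 and AKP 3. Levels did not overlap in 0 genes that were higher in AKP (12.9% of all genes) and in 4 that were lower (12% of all genes), namely Grid1, Grin3a, Gria1 and Grin2b.

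Grid1, a delta receptor that joins presynaptic and postsynaptic membranes (chromosome 14, 34820003 to 35583387), had 23.7, 22.8, 21.2 and 24.2 CPM in Ptch 1 to 4 and 17.8, 14.4 and 14.4 CPM in AKP 1 to 3. The groups did not overlap, and the log2 fold change was -0.57 ± 0.12 (edgeR adjusted p = 0.0275). Grin3a, an NMDA subunit that lowers calcium entry (chromosome 4, 49661611 to 49846023), had 25.6, 24.5, 22.4 and 22.9 CPM in Ptch 1 to 4 and 18.2, 18.0 and 16.9 CPM in AKP 1 to 3. Here too every AKP library, AKP 1 included, was below every Ptch library (-0.43 ± 0.10, adjusted p = 0.0349). Grik3, a kainate subunit (chromosome 4, 125490259 to 125714173), had 36.7, 30.7, 43.1 and 42.2 CPM in Ptch 1 to 4 and 30.7, 19.2 and 23.1 CPM in AKP 1 to 3. AKP 1 and Ptch 2 lay at nearly the same Grik3 level, so the groups overlapped, and the log2 fold change was -0.65 ± 0.17 (adjusted p = 0.0477).

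These 3 calls were near the threshold. Over 24 other settings Grid1 passed in 12, Grin3a in 11 and Grik3 in 7, with every fold change negative, and Gabra5 passed as higher in 5, upper-quartile scaling and DESeq2 among them. None of the 3 passed in the libraries of 2 months (AKP 1 and AKP 2 against Ptch 3 and Ptch 4), where they gave -0.50, -0.33 and -0.78 (adjusted p = 0.310, 0.336 and 0.292) and 0% of all genes passed. A fit that removed length and GC trends gave -0.40, -0.21 and -0.38 (adjusted p = 0.101, 0.352 and 0.221). Without AKP 2, AKP 3, Ptch 1 or Ptch 2 no receptor gene passed, beside at most 0.00645% of all genes. Without Ptch 4 none passed either (1.18% of all genes), and without Ptch 3 only Grid1 did (2.07%). Without AKP 1, 10 passed (9.08% of all genes), 8 of them lower. DESeq2 called 8 (12.4% of all genes).

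**Figure D4:**
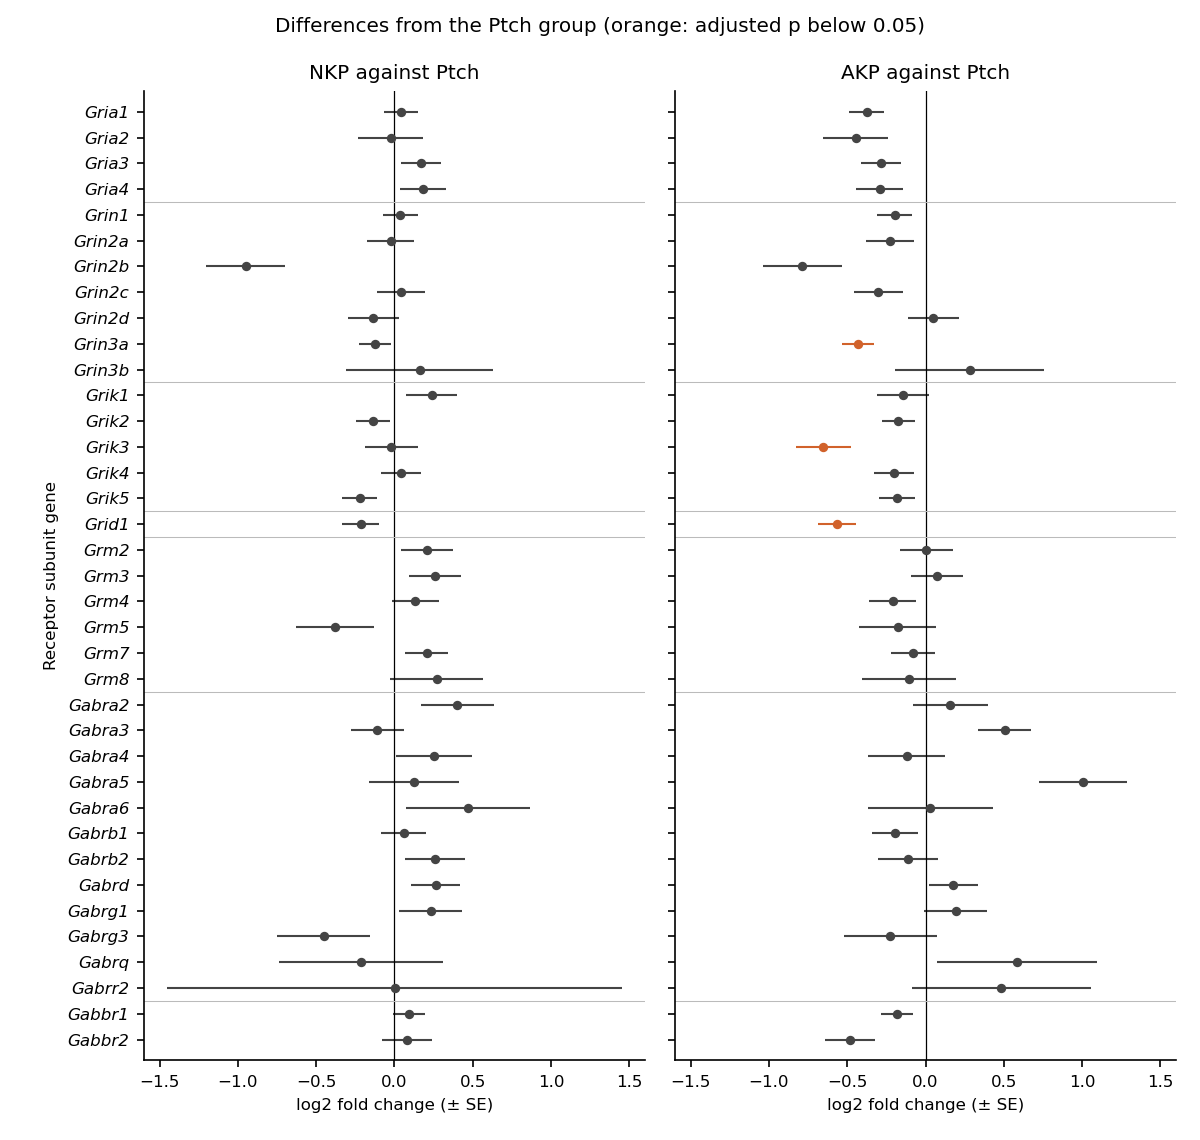
Log2 fold changes of 37 receptor genes with their standard errors (SE), NKP against Ptch on the left and AKP against Ptch on the right; both use the same 4 Ptch libraries. Orange marks adjusted p below 0.05, which Grin3a, Grik3 and Grid1 reached in AKP; Grin2b lies near -0.95 in NKP and -0.79 in AKP, and Gabra5 near 1.01 in AKP.

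All 4 AMPA genes, both delta genes, all 5 kainate genes and both GABA-B genes had negative differences in AKP. Gria1, the main AMPA subunit here, was 410, 372, 483 and 457 CPM in Ptch 1 to 4 and 362, 302 and 332 CPM in AKP 1 to 3, without overlap (-0.38 ± 0.11, adjusted p = 0.0623). Grin2b was 6.49, 12.3 and 11.6 CPM in AKP 1 to 3, below every Ptch library (-0.79 ± 0.25, adjusted p = 0.0790), and length and GC trends brought this to -0.38 (adjusted p = 0.487). Grin2c was 224, 224, 254 and 269 CPM in Ptch and 260, 155 and 177 CPM in AKP 1 to 3 (-0.30 ± 0.16, adjusted p = 0.252). AKP 1 lay within the Ptch range for Grin2c, and AKP 2 and AKP 3 lay below it. Summed markers of mature granule neurons were 3376 to 3837 CPM in Ptch, 4464 in AKP 1, and 2867 and 3200 CPM in AKP 2 and AKP 3. Purkinje cell markers were 3629 to 5034 CPM in Ptch, 5654 in AKP 1, and 3018 and 3590 CPM in AKP 2 and AKP 3. In each list 4 of 9 markers had positive log2 fold changes in AKP against Ptch, and 0 passed. The Purkinje sum includes Itpr1, which is also an mGlu partner gene in the sets below. Other lists moved more in 1 direction in AKP against Ptch. All 7 oligodendrocyte markers were positive and 1 passed, and all 5 red blood cell markers were positive and 3 passed. Of 8 granule neuron precursor markers 0 were positive, and 1 passed as lower. Of 8 dividing-cell markers 0 were positive and 0 passed. Endothelial markers were positive in 5 of 6, and 1 passed as higher. How far any of these cell types account for the receptor values was not tested.

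A smaller set of GABA-A subunits was high in AKP 2 and AKP 3. Gabra5, an alpha subunit of tonic receptors (chromosome 7, 57407669 to 57591016), was 4.00, 5.01, 3.26 and 2.85 CPM in Ptch 1 to 4 and 4.36, 9.81 and 8.62 CPM in AKP 1 to 3 (1.01 ± 0.28, adjusted p = 0.0539). Gabra3, an alpha subunit common in the brainstem (X chromosome, 72432676 to 72656919), was 18.9, 17.8, 18.3 and 21.2 CPM in Ptch 1 to 4 and 18.5, 30.4 and 32.2 CPM in AKP 1 to 3 (0.51 ± 0.17, adjusted p = 0.0854). Its neighbour Gabrq, the theta subunit of monoaminergic neurons, was 1.85 to 2.44 CPM in Ptch and 0.740, 4.33 and 4.50 CPM in AKP 1 to 3 (0.59 ± 0.51, adjusted p = 0.516). AKP 1 lay within the Ptch range for Gabra5 and Gabra3 and below it for Gabrq. Without AKP 2 and AKP 3 the difference was 0.20 for Gabra5, -0.04 for Gabra3 and -1.52 for Gabrq. Gabrd gave 0.18 ± 0.16 (adjusted p = 0.525), Gabrg1 0.19 ± 0.20 (adjusted p = 0.597), and Gabra6 and Gabra2 gave 0.03 ± 0.40 (adjusted p = 0.976) and 0.16 ± 0.24 (adjusted p = 0.725).

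The same 2 libraries had the highest sum of brainstem and spinal neuron markers. Over 12 markers it was 29.2 to 32.2 CPM in Ptch, 5.23, 4.59 and 23.0 CPM in NKP 1 to 3, and 6.99, 92.1 and 75.5 CPM in AKP 1 to 3. Tph2 and Slc6a4, which define serotonin neurons, were 45.5 and 26.0 CPM in AKP 2 and 35.2 and 22.1 CPM in AKP 3, against 11.5 to 15.5 and 7.42 to 11.5 CPM in Ptch, and made up most of the sum. The markers did not all follow it: Slc6a2, the noradrenaline transporter, was 5.92 and 6.56 CPM in AKP 2 and AKP 3 but 8.18 CPM in Ptch 4 and 7.61 CPM in NKP 3, and Hoxb3 was highest in AKP 1 (1.07 CPM), Hoxb4 in NKP 3 (0.383 CPM) and Hoxc4 in Ptch 3 (0.662 CPM). Of the 12 markers 7 were at 0 in at least 1 library, Fev and 5 Hox genes among them. Of the 8 markers tested all had positive log2 fold changes in AKP against Ptch and 2 passed. The part of such neurons in Gabra3, Gabra5 and Gabrq was not tested.

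AKP against NKP is the direct test of whether the libraries labelled medulloblastoma differ between the Cre lines. No receptor gene passed (edgeR), against 0.0064% of all genes, which is 1 gene and lower in AKP (0% were higher); the smallest adjusted p of a receptor gene was 0.228. With an unadjusted p under 0.05 there were 11 of 42, of which 9 were lower in AKP, beside 16.9% of all genes (1377 higher and 1256 lower), and DESeq2 called 3 (1.47% of all genes). Log2 fold changes were negative in 32 of 42, with a median of -0.27 against -0.01 over all genes. That median was -0.16 with length and GC trends removed, -0.18 without AKP 2 and -0.047 without AKP 2 and AKP 3. Levels did not overlap in 9 genes that were lower in AKP (9.52% of all genes) and in 0 that were higher (6.69%). Gria1 gave -0.42 ± 0.12 and Grik3 -0.63 ± 0.18, both without overlap, and Gabra3 and Gabra5 gave 0.62 ± 0.18 and 0.88 ± 0.31 (adjusted p = 0.228 for all 4). The differences of Grin2b (0.16 ± 0.27, adjusted p = 0.783), Grin2c (-0.34 ± 0.17, adjusted p = 0.312), Gabra2 (-0.24 ± 0.25, adjusted p = 0.642) and Gabra6 (-0.44 ± 0.43, adjusted p = 0.620) did not pass. The count rested on AKP 1, the library closest to NKP 1: without it 14 receptor genes passed, 12 of them lower, against 8.49% of all genes.

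The juvenile and adult subunits were also set against each other within each library, as log2 ratios of CPM, which are not per length. Grin2c over Grin2b was 3.47, 3.49, 4.14 and 4.08 across Ptch 1 to 4, 5.19, 4.86 and 4.43 across NKP 1 to 3, and 5.31, 3.65 and 3.92 in AKP 1 to 3. The ratio was above the Ptch range in every NKP library and in AKP 1, and within that range in AKP 2 and AKP 3. Gabra6 over Gabra2 stayed between 3.91 and 4.80, with means of 4.40 ± 0.19 (SD, n = 4) in Ptch, 4.53 ± 0.24 (n = 3) in NKP and 4.22 ± 0.39 (n = 3) in AKP. Both alpha subunits were low in Ptch 1, Ptch 2 and AKP 2 and high in NKP 2 and AKP 1, so their ratio moved less than either level. Slc12a5, which extrudes chloride, over Slc12a2, which imports it, was 1.96 to 2.55 in Ptch, 1.68 to 2.13 in NKP and 1.78 to 1.92 in AKP.

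**Figure D5:**
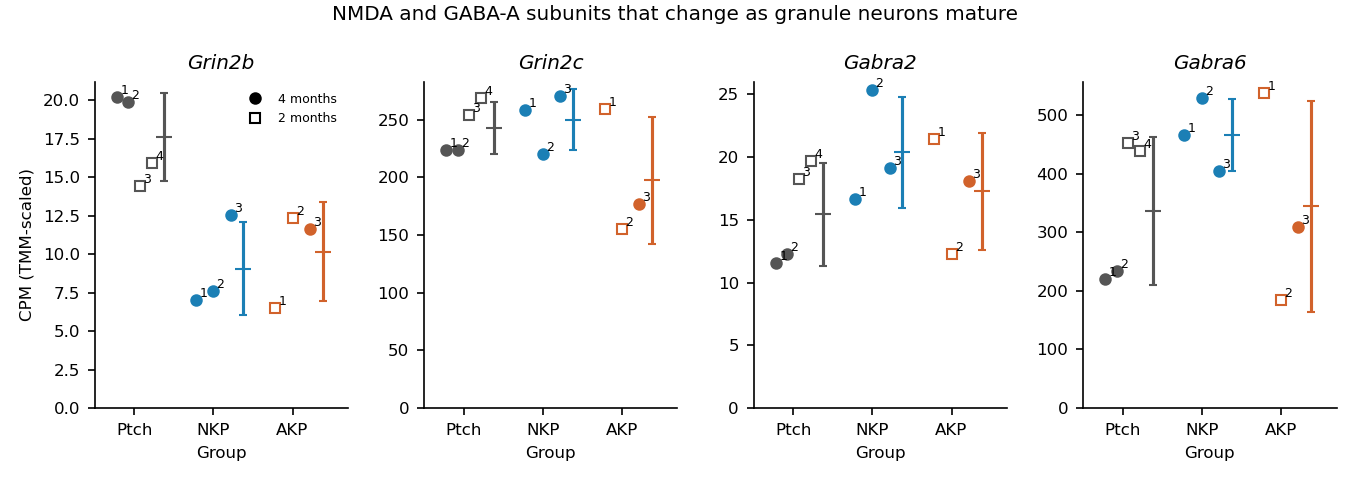
CPM of the juvenile subunits Grin2b and Gabra2 and the adult subunits Grin2c and Gabra6 in each library, numbered by replicate, with filled circles for 4 months and open squares for 2 months. Bars are group means ± SD. Grin2b is 14.4 CPM or more in every Ptch library and 12.5 CPM or less in the others, while Gabra2 and Gabra6 share their low libraries (Ptch 1, Ptch 2 and AKP 2).

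Genes that work with these receptors were listed in 7 sets of 98 genes, of which 97 were tested. In NKP against Ptch 0 passed, in AKP against Ptch 1 passed, and in AKP against NKP 0 passed, by edgeR, beside 0%, 5.68% and 0.0064% of all genes tested. The 1 was Gabarap, which carries GABA-A receptors to the membrane and also serves autophagy. It was 254, 258, 231 and 227 CPM in Ptch 1 to 4 and 294, 356 and 318 CPM in AKP 1 to 3, and rose by 0.41 ± 0.11 on the log2 scale (adjusted p = 0.0448). Among the 18 AMPA auxiliary subunits 16 had negative log2 fold changes in AKP against Ptch, with a median of -0.17, led by Cacng2, the stargazin gene (-0.38 ± 0.11, adjusted p = 0.0618), and in NKP Gsg1l gave -1.19 ± 0.37 (adjusted p = 0.218). Of the 13 mGlu partners 12 were negative in AKP against Ptch (median -0.19), with Gnaq, the G protein of group I receptors, at -0.23 ± 0.08 (adjusted p = 0.0850). The 14 kainate, NMDA and delta partners had a median of -0.09, and Grid2ip, a scaffold gene of Purkinje cell synapses, gave -0.61 ± 0.19 (adjusted p = 0.0749). Of the 11 GABA-B partners tested, the potassium channel gene Kcnj9 gave -0.30 ± 0.09 in AKP against Ptch (adjusted p = 0.0714).

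Chloride transport and transmitter handling gave no further call. Slc12a5 was 341 to 367 CPM in Ptch, 332 to 381 CPM in NKP and 312, 262 and 275 CPM in AKP 1 to 3, below every Ptch library (-0.30 ± 0.09, adjusted p = 0.0667). Slc12a2 was 58.7, 61.6, 82.5 and 88.0 CPM in Ptch 1 to 4, with the lowest levels in Ptch 1 and Ptch 2, and gave 0.32 ± 0.16 in NKP (adjusted p = 0.320) and 0.12 ± 0.16 in AKP (adjusted p = 0.675). The GABA transporter Slc6a13, known from the meninges, was 13.9 ± 1.83 CPM (SD, n = 4) in Ptch, 22.1 ± 4.47 (n = 3) in NKP and 19.5 ± 0.865 (n = 3) in AKP, without overlap with Ptch in either comparison (0.67 ± 0.15, adjusted p = 0.218, and 0.49 ± 0.15, adjusted p = 0.0668). Slc17a8, a vesicular glutamate transporter of brainstem serotonin neurons among others, was 3.25 and 2.06 CPM in AKP 2 and AKP 3 and 0 to 0.865 CPM in the other libraries. In NKP against Ptch the smallest p of the remaining sets belonged to C1ql3 (0.65 ± 0.20, adjusted p = 0.218), Mdga1 (-2.59 ± 0.81, adjusted p = 0.218), Kcnj6 (-0.53 ± 0.17, adjusted p = 0.218), Stk39 (0.36 ± 0.14, adjusted p = 0.235) and Homer2 (-0.55 ± 0.25, adjusted p = 0.293). In AKP against NKP they belonged to Frrs1l (-1.28 ± 0.33), Slitrk3 (-0.57 ± 0.17), Itpr1 (-0.63 ± 0.20), Kcnj9 (-0.30 ± 0.10), Slc12a5 (-0.31 ± 0.10) and Cbln3 (-0.45 ± 0.18), with adjusted p = 0.228 for the first 5 and 0.258 for Cbln3.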

How the data were processed

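RNA was measured in 10 mouse libraries made from homogenised cerebellum or medulloblastoma with TruSeq RNA v2, an unstranded kit, per the labels' protocols. The deposited table gives each gene symbol a whole number in every library, read as the expected counts of RSEM, rounded before they were deposited, since the values are whole and library totals differ. Trim Galore, STAR, RSEM and GRCm38 are named in the submitters' processing notes, with versions not given in the sources used here. RSEM divides reads among similar genes by estimation, and without strand the reads of overlapping genes cannot be told apart, which touches Grin3b (1059 exonic bases shared with Tmem259), Grin1 (1307 with Grin1os) and Gabra4 with Gabrb1 (46 bases).

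Members and lists were chosen with earlier results of these data known. Genes were kept by filterByExpr (15617), scaled by TMM and tested with edgeR 4.0.16 (R 4.3.3), quasi-likelihood F test with robust dispersion, 1 fit of all 10 libraries without covariates, with Benjamini-Hochberg adjustment over all genes tested and a threshold of 0.05. SE is the size of the log2 fold change divided by the square root of F. Total counts of 12300430 to 19348991 leave genes near the count minimum imprecise. The labels do not say whether libraries are from different animals, and p-values then cover only the spread of these libraries, which may be technical. Ratios used a prior count of 0.5. Lengths came from GENCODE vM21, and coordinates from RefSeq GRCm38.p6, which held 39754 of 39769 symbols. Named in the text are the genes that passed, Grin2b, Grin2c, Gabra2 and Gabra6, and the 5 smallest p of each sign (2 in AKP against NKP); other members have levels only, and 5 members, counted in every total, are not reported here by name or drawn. Partner sets name at most 3 genes that passed or else the 1 with the smallest p, plus Slc12a2 and Slc12a5. Gabra4, Gabrb2 and Gria4 in the libraries of 4 months were named after their values were seen. The test was checked on simulated counts. Alternatives were 24 other settings, among them other scaling and filters, DESeq2 1.42.0, age or sex label as covariate, libraries of 1 age, length and GC trends, and each library left out. Leaving out Ptch 1 with Ptch 2, or AKP 2 with AKP 3, was chosen after seeing the data.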

Additional observations from a re-analysis of the deposited data

Results flagged for a closer look

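Among the 42 receptor genes 2 had a Ptch library far from the other 3, and chance alone gives this in about 1 of 20 groups. Gabrr2, a rho subunit near the count minimum, was 0.814 CPM in Ptch 3, against 0.444 to 0.465 CPM in the others. Grin3b, an NMDA subunit that shares 1059 exonic bases with Tmem259, was 1.86 CPM in Ptch 2, against 0.560 to 0.693 CPM in the others.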

How the results depend on the processing

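Counts of receptor genes that passed depended on the libraries used. In NKP against Ptch the count of 0 became 1 by DESeq2 (2.6% of all genes), 1 with age as a covariate (5.97%) and 9 in libraries of 1 age (15.6%), and was 0 to 0 over fits that left out 1 library each. In AKP against Ptch the count of 3 became 8 by DESeq2 (12.4% of all genes) and 0 with the sex label as a covariate, in libraries of 1 age, with a replicate block, with length and GC trends, without the 4 libraries against their sex label, without Ptch 1 and Ptch 2, and without AKP 2 and AKP 3; leaving out 1 library gave 0 to 10. In AKP against NKP the count of 0 became 3 by DESeq2 (1.47% of all genes) and 4 in libraries of 1 age (2.54%), where AKP 3 alone is assumed to vary like the others, and leaving out 1 library gave 0 to 14. For the 97 partner genes, to be read against the same shares of all genes, in NKP against Ptch the count of 0 became 2 by DESeq2, 4 with age as a covariate and 25 in libraries of 1 age. In AKP against Ptch the count of 1 became 2 with upper-quartile scaling, without the filter and with only the 2 groups, and 13 by DESeq2. It was 0 under the settings listed above with 0 receptor genes, and 0 to 25 when 1 library was left out. In AKP against NKP it became 3 by DESeq2 and 11 in libraries of 1 age, with 0 to 30 when 1 library was left out. Upper-quartile scaling made 741 of 994 calls higher in AKP against Ptch, against 528 of 887. Directions turned for Grin2c in NKP against Ptch (-0.045 after leaving out the 4 libraries against their sex label, -0.072 without Ptch 1 and Ptch 2, -0.020 to 0.125 leaving out 1 library). In AKP against Ptch they turned for Gabra2 (-0.17 in libraries of 1 age, -0.13 without Ptch 1 and Ptch 2, -0.025 to 0.357 leaving out 1 library), Gabra6 (-0.31, -0.37 and -0.45 to 0.33 likewise, and -0.14 with length and GC trends), Gabrg1 (-0.070 in libraries of 1 age and -0.074 without Ptch 1 and Ptch 2) and Gabrd (-0.059 to 0.287 leaving out 1 library). Without AKP 2 and AKP 3 they turned for Grin2c (0.10), Gabra3 (-0.044) and Gabrq (-1.52) against Ptch, and for Grin2b (-0.49), Grin2c (0.056), Gabra2 (0.072) and Gabra6 (0.21) against NKP. The causes were not tested. Same-numbered libraries do not pair: their deviations correlated by -0.33 to 0.34. The replicate block left 0 calls among receptor and partner genes in each comparison, beside 0% of all genes.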
